A study of Mus musculus with 9 samples.

Results

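The comparison described here set 3 Ring1b_KD arrays against 3 Control arrays, 6 of the 9 arrays in the series. Every probe set other than the array's own controls was considered, and a gene was represented by the probe set, among those with a single gene symbol, that had the highest mean over the 9 arrays. This gave 18193 genes from 45037 probe sets. All values are log2 signals after quantile normalization between the 9 arrays, a scaling that gives every array the same distribution of values. Differences were tested with limma's moderated test, fitted to all 9 arrays so that the groups share one estimate of spread, with Benjamini-Hochberg adjustment across the 18193 genes. A gene is called, or said to have risen or fallen, at an adjusted p under 0.05. The scaling matters for the direction of many small differences, and the results under other scalings are given beside those they change.

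All groups were L8057 cells, a mouse line labelled as megakaryocytic, infected with a lentivirus. Ring1b_KD cells carried a short hairpin RNA against Ring1b, and Control cells carried the empty vector, with no hairpin stated. The remaining group, CBFb_KD, carried a hairpin against CBFb, the subunit that stabilises RUNX proteins on DNA. In all 3 groups the cells received puromycin, which kills uninfected cells, together with 50 nM of the phorbol ester TPA, which induces maturation. This began 48 h after infection and lasted 72 h (3 days of TPA), when RNA was prepared. All groups analysed here had TPA, so each difference is between TPA-treated cells. How many hairpins were used is not stated in the labels. Loss of Ring1b and other effects of carrying a hairpin cannot be told apart against an empty vector, and all arrays come from 1 cell line. The submitters describe biological triplicates, and whether the cultures were infected separately is not stated, so a p-value here reflects only how far these arrays spread, which may be technical.

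Ring1b, encoded by Rnf2, is a RING finger ubiquitin ligase and the catalytic core, with its paralog Ring1, of Polycomb repressive complex 1 (PRC1). PRC1 places ubiquitin on histone H2A and works with PRC2, which methylates histone H3, to keep developmental genes silent. In blood cells PRC1 is known for silencing the cell cycle inhibitor locus Cdkn2a and for supporting the self-renewal of progenitors, and the study's title concerns its recruitment by core binding factors.

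Over all arrays, replicates of one group correlated at 0.995 to 0.997 and Ring1b_KD with Control arrays at 0.992 to 0.994. Among megakaryocyte and platelet genes, 18 of 36 measured members had a Control mean at or above that of the median gene (7.42), a rough mark because probe sets differ in brightness. Of its members looked up singly, Pf4 (14.42), Itga2b (11.22), Gp9 (8.75) and Gp5 (7.85) lay above that mean. Itgb3 (6.88), Gp6 (6.33), Tubb1 (5.97), Ppbp (6.81) and Vwf (5.52), which also mark this lineage, lay below. Of further markers that are not on the list, Gata1 (11.66) and Fli1 (11.31) lay above and Nfe2 (5.37) below. Of the lists for other cells, 19 of 26 erythroid, 8 of 28 granulocyte and monocyte, 7 of 17 mast cell, basophil and eosinophil, 4 of 24 lymphoid, 9 of 20 stem, progenitor and endothelial and 3 of 20 fibroblast and epithelial genes reached the same mark.

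The transcript of the targeted gene was lower in every Ring1b_KD array. Rnf2 (chromosome 1, 151469398 to 151500991 on GRCm38.p6) read 9.08, 8.96 and 8.92 in the Ring1b_KD arrays against 10.56, 10.68 and 10.72 in the Control arrays, so the groups lay far apart. It fell 3.17-fold (log2 fold change -1.67, SE 0.077, limma adjusted p = 3.31e-07). Of its 5 probe sets, those with log2 fold changes of -1.67, -1.71 and -1.02 passed and those with 0.07 and -0.12 did not. Protein was not analysed here, so "knockdown" below refers to the label and to this transcript.

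With the Ring1b hairpin, 2225 of 18193 genes (12.2%) passed at a limma adjusted p under 0.05, 1029 higher (5.66% of all genes) and 1196 lower (6.57%). Most of these differences were small: the median size was 0.40 on the log2 scale among genes that rose and 0.43 among those that fell, and 66 called genes (0.363%) differed at least 2-fold, 33 in each direction. At an unadjusted p under 0.05 there were 4897 genes (26.9%). Among all genes tested 32.9% had 3 Ring1b_KD arrays wholly above or below the 3 Control arrays, and among called genes 1021 of those that rose and 1186 of those that fell did. The share called grew with the level: by quartile of Control level, from the lowest, it was 2%, 3.91%, 18.6% and 24.4%, so the share of a list of bright or dim genes stands beside a background other than 12.2%. Where a list below has no such share beside it, 12.2% of all genes and these quartile shares are its background. The count rested on which arrays were used. Without Control array 3 it was 1139, without Control array 2 it was 1225, and without any other single array it was 1529 to 2365.

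**Figure D1:**
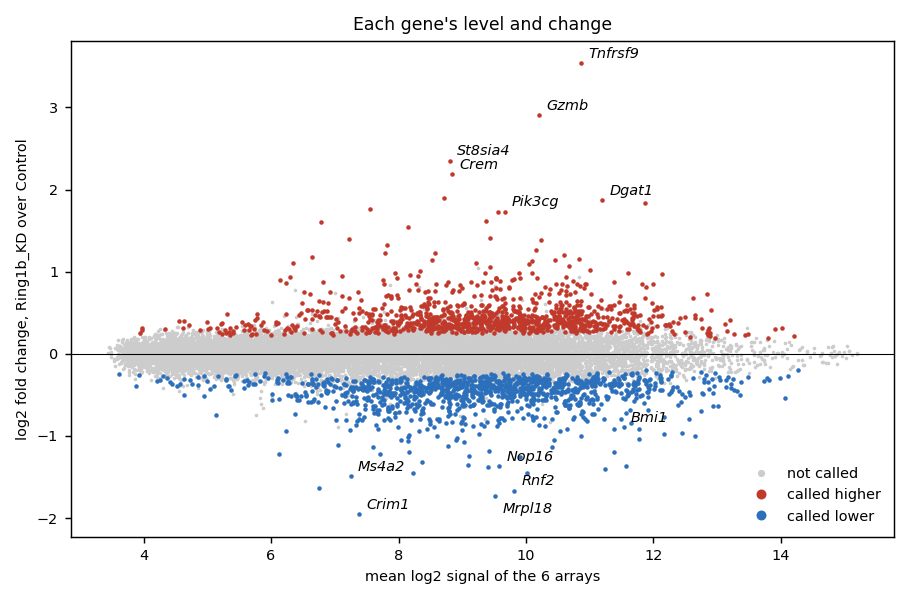
Each point is a gene, placed by its mean log2 signal over the 6 arrays (x axis) and its log2 fold change in Ring1b_KD over Control (y axis). Red points are the 1029 genes called higher, blue points the 1196 called lower and grey points those not called. Tnfrsf9 and Gzmb stand above all other genes, and most called genes lie within 1 log2 unit of 0.

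The largest rises were of Tnfrsf9 and Gzmb. Tnfrsf9, which encodes the costimulatory receptor 4-1BB (CD137), read 12.79, 12.32 and 12.79 in Ring1b_KD against 9.02, 9.27 and 8.98 in Control. The lowest Ring1b_KD array was more than 3 log2 units above the highest Control array, and the rise was 11.6-fold (log2 fold change 3.54, SE 0.195, limma adjusted p = 5.78e-07). A second probe set of Tnfrsf9 gave 4.21 and passed, and the remaining one gave 0.07 and did not. Gzmb, the cytotoxic granule protease granzyme B, read 11.75, 11.27 and 11.96 against 8.91, 9.35 and 8.0. It rose 7.48-fold (log2 fold change 2.90, SE 0.263, limma adjusted p = 4.25e-05), with Control arrays spread more widely than Ring1b_KD arrays. Fcer1a, lower among the 15 rises and the IgE-binding alpha chain of the high-affinity IgE receptor, read 8.28, 7.59 and 6.88 against 6.60, 5.65 and 5.67, and the lowest Ring1b_KD array was close to the highest Control array. It rose 3.05-fold (log2 fold change 1.61, SE 0.300, limma adjusted p = 0.00447).

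Promoters were searched for TGTGGT because the study concerns core binding factors, whose RUNX subunit is known to bind this core motif. Those shown are of Tnfrsf9, the largest rise, and of Gzmb, St8sia4 and Fcer1a, the 3 of the 10 largest rises with a promoter in the table that held the motif, chosen after the matches were known. Ccng2, Ears2, Fosl2, Gpr65, Nr4a2 and Pik3cg had no match, like Tnfrsf9, and are not shown. The sequences are RefSeq's, on GRCm38.p6, from 250 bases before to 50 bases after the annotated start and written 5′ to 3′ along the gene. Capitals mark TGTGGT or its reverse complement ACCACA. Tnfrsf9 (chr4:150919905-150920204, plus strand, the first of 2 promoters listed for it) had no match. Gzmb (chr14:56262285-56262584, minus strand) had matches starting 93 and 34 bases before the start, St8sia4 (chr1:95667545-95667844, minus strand), described next, 211 and 193 bases before it, and Fcer1a (chr1:173227180-173227479, minus strand) 14 bases before it.
Tnfrsf9: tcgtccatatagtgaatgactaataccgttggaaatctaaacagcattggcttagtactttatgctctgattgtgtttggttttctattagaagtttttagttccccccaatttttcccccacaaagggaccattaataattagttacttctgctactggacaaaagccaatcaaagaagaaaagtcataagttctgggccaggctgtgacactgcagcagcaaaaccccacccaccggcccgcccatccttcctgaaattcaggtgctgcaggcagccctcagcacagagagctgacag
Gzmb: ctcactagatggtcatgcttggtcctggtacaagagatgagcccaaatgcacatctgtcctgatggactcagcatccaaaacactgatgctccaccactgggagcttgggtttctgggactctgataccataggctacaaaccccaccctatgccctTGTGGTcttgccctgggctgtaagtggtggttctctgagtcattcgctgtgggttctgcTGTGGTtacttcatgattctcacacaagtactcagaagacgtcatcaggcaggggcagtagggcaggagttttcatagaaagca
St8sia4: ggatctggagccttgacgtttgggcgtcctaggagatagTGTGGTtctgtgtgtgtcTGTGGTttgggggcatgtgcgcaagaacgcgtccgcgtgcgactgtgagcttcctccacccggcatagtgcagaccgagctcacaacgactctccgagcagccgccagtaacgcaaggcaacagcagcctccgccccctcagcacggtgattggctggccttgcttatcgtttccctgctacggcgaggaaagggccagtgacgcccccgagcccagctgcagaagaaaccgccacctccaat
Fcer1a: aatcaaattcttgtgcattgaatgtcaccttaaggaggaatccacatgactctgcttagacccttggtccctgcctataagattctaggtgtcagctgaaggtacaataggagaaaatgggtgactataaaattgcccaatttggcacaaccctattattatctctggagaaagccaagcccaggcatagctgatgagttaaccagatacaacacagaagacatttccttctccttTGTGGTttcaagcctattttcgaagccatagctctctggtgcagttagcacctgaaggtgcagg

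The motif stood in 13.7% of the 14452 tested genes with a promoter in the table, in 11.4% of 849 genes called higher and in 12.0% of 968 called lower. Among genes called at least 2-fold it stood in 4 of 24 that rose (16.7%) and 3 of 28 that fell (10.7%). Of the 15 largest rises 10 had a promoter in the table and 3 held the motif, and of the 15 largest falls 13 had one and 1 held it. A match to 6 letters is a description and not a binding site. Called genes had promoters richer in CpG than all genes: the median ratio of observed to expected CpG was 0.76 among genes called higher and 0.818 among those called lower, against 0.674 over all genes. Genes in the highest quartile by Control level had 0.833, so the called genes lay between all genes and brightly expressed ones.

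Other large rises included receptors and enzymes. St8sia4, an enzyme that adds polysialic acid to glycoproteins, read 9.97, 10.01 and 9.98 in Ring1b_KD against 7.67, 8.35 and 6.88 in Control, and rose 5.10-fold (limma adjusted p = 0.000452). Its Ring1b_KD arrays were nearly equal while its Control arrays covered more than 1 log2 unit. Pik3cg, the catalytic subunit of phosphoinositide 3-kinase gamma, was tight in both groups, at 10.62, 10.46 and 10.51 against 8.89, 8.88 and 8.63, and rose 3.31-fold (limma adjusted p = 5.78e-07). Gpr171, a G protein-coupled receptor, read 8.92, 8.38 and 8.01 against 6.49, 7.25 and 6.27 and rose 3.40-fold (limma adjusted p = 0.000626). Cd200r1, an inhibitory receptor of myeloid and mast cells, read 9.08, 8.92 and 8.76 against 7.32, 7.63 and 7.19 and rose 2.91-fold (limma adjusted p = 9.42e-05). The other Cd200r1 probe set gave 0.54 and was not called. All of the Ring1b_KD arrays lay above all of the Control arrays for each of these genes, as the rule for naming required.

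Dgat1, Btn1a1 and Ears2 were among the large rises as well. Dgat1, the enzyme of the last step of triglyceride synthesis, read 11.97, 12.37 and 12.06 against 10.07, 10.76 and 9.96 and rose 3.65-fold (limma adjusted p = 0.000299). Btn1a1, a butyrophilin first known from milk fat, read 12.64, 12.98 and 12.71 against 10.79, 11.45 and 10.60 and rose 3.56-fold (limma adjusted p = 0.000493). Ears2, the mitochondrial glutamyl-tRNA synthetase, read 10.34, 10.71 and 10.21 against 8.45, 9.11 and 8.5 and rose 3.32-fold (limma adjusted p = 0.000424). In all 3 genes array 2 was the highest of its group, in Ring1b_KD and in Control.

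Inducible transcription factors made up a further group with wider spread. Crem, a cAMP-responsive factor, read 9.86, 9.99 and 9.95 in Ring1b_KD against 7.58, 8.43 and 7.24 in Control and rose 4.55-fold (limma adjusted p = 0.00311). Nr4a2, an orphan nuclear receptor of the immediate early class, read 9.66, 9.89 and 9.43 against 7.14, 9.05 and 7.12, and rose 3.71-fold (limma adjusted p = 0.0269). Fosl2, a subunit of the AP-1 factor, read 9.87, 10.35 and 10.31 against 8.27, 9.28 and 8.12 and rose 3.07-fold (limma adjusted p = 0.0068). In each of them Control array 2 stood well above the other Control arrays. The last of the 15 were Ccng2, an atypical cyclin found in non-dividing cells (1.41 on the log2 scale, limma adjusted p = 0.00325), and Gpr65, a proton-sensing receptor (1.39, limma adjusted p = 0.0233). The calls of Nr4a2 and Gpr65 were lost without Ring1b_KD array 1 or 2 or Control array 1 or 3. Nr4a2 also lost its call when its probe sets were averaged, and its other probe sets (0.09 to 1.51) were not called. The other Fosl2 probe set gave 0.61 and was not called. Across the 15 rises Control array 2 was the highest Control array in 13 and Control array 3 the lowest in 13, and the part of this ordering in the rises was not tested.

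**Figure D2:**
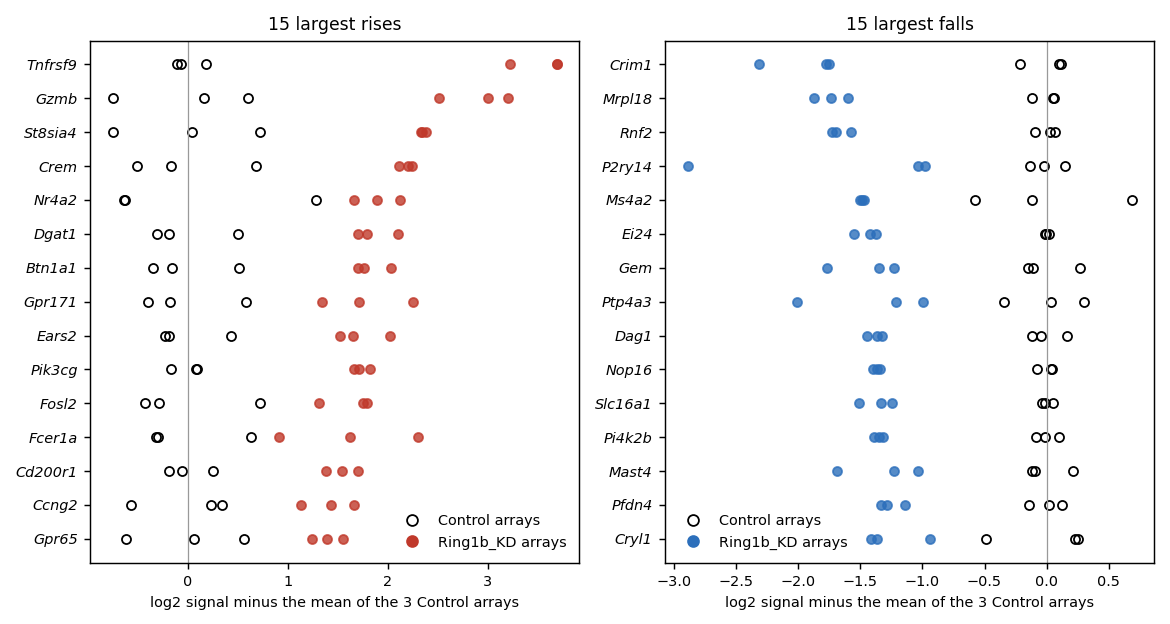
Each row is a gene, and each point an array, as log2 signal minus the mean of the 3 Control arrays (x axis). Open circles are Control arrays and filled circles Ring1b_KD arrays, for the 15 largest rises (left) and falls (right). No gene shown has overlapping groups, which the rule required. Nr4a2 has 1 Control array close to its Ring1b_KD arrays, and P2ry14 has 1 Ring1b_KD array far below the others.

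Crim1 fell most, ahead of Mrpl18 and Rnf2. Crim1, a transmembrane protein that binds bone morphogenetic proteins, read 6.60, 6.58 and 6.03 in Ring1b_KD against 8.14, 8.45 and 8.47 in Control. It fell 3.86-fold (log2 fold change -1.95, SE 0.143, limma adjusted p = 7.47e-06), with more than 1 log2 unit between the groups. Mrpl18, a protein of the mitochondrial ribosome, read 8.65, 8.51 and 8.79 against 10.27, 10.44 and 10.45 and fell 3.33-fold (log2 fold change -1.73, SE 0.0876, limma adjusted p = 5.07e-07). Ei24, a membrane protein of the endoplasmic reticulum induced by p53, read 9.36, 9.32 and 9.19 against 10.76, 10.74 and 10.72 and fell 2.73-fold (limma adjusted p = 5.78e-07). The spread within each group was small for Mrpl18 and Ei24 beside the gap between groups.

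Nop16, a nucleolar protein of the large ribosomal subunit pathway, read 8.90, 8.87 and 8.93 against 10.31, 10.19 and 10.30 and fell 2.58-fold (limma adjusted p = 7.39e-07). Its other probe set gave -0.39 and was not called. Slc16a1, the lactate and pyruvate transporter MCT1, read 10.93, 10.75 and 11.01 against 12.24, 12.22 and 12.31 and fell 2.57-fold (limma adjusted p = 5.78e-07); its other probe set gave -0.22 and was not called. Dag1, the laminin receptor dystroglycan, fell by 1.38 on the log2 scale (limma adjusted p = 1.95e-06), Pi4k2b, a phosphatidylinositol 4-kinase, by 1.35 (limma adjusted p = 4.25e-05) and Pfdn4, a subunit of the prefoldin chaperone, by 1.25 (limma adjusted p = 5.08e-06). Of the other Dag1 probe sets 1 passed, at -0.44, and those at -0.13 and 0.09 did not.

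Ms4a2, the beta chain of the high-affinity IgE receptor, read 6.52, 6.50 and 6.49 against 8.68, 7.42 and 7.88 and fell 2.80-fold (limma adjusted p = 0.00154). The alpha and beta chains of this receptor thus moved in opposite directions, and Fcer1g, its gamma chain, looked up after these values were seen, had a log2 fold change of 0.18 (limma adjusted p = 0.199). Ptp4a3, a protein tyrosine phosphatase, read 10.73, 10.94 and 9.93 against 11.98, 11.60 and 12.24 and fell 2.65-fold (limma adjusted p = 0.00256). The other Ptp4a3 probe set gave -0.005 and was not called. P2ry14, a receptor for UDP-sugars, read 6.60, 6.54 and 4.68 against 7.72, 7.44 and 7.56; its fall of 1.63 (limma adjusted p = 0.0256) lost its call when any 1 Control array was left out. Gem, a small GTPase, fell by 1.45 (limma adjusted p = 8.49e-05), the kinase Mast4 by 1.32 (limma adjusted p = 0.000172) and Cryl1, an enzyme of sugar metabolism, by 1.24 (limma adjusted p = 0.00267). Mast4 had 8 probe sets and the chosen one alone was called. The other Cryl1 probe sets gave 0.14, 0.16 and 0.27, and none was called. Both Mast4 and Cryl1 lost their call when the probe sets of a gene were averaged.

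How far these genes set the Ring1b hairpin apart from the CBFb hairpin was read from the direct contrast of both knockdowns, since each knockdown was set against the same Control arrays. Over all genes that contrast called 3536 (19.4%). The 30 genes were chosen on the Ring1b_KD arrays, which favours a difference. Of the 15 rises, 9 were higher in Ring1b_KD than in CBFb_KD, Cd200r1 was lower (-0.51, limma adjusted p = 0.0371), and Ccng2, Crem, Fosl2, Gpr65 and Nr4a2 did not pass. Gzmb differed most, with log2 fold changes against Control of 2.90 in Ring1b_KD and -1.30 in CBFb_KD and a difference of 4.21 (limma adjusted p = 7.78e-07). Btn1a1 had 1.83 and -0.01 (difference 1.84, limma adjusted p = 0.000174). Crem, by comparison, had 2.19 and 1.61 (difference 0.58, limma adjusted p = 0.336) and Nr4a2 1.89 and 1.81 (difference 0.09, limma adjusted p = 0.931). Of the 15 falls 14 were lower in Ring1b_KD than in CBFb_KD, and Ms4a2 was not called, with -1.49 and -1.92 (difference 0.43, limma adjusted p = 0.225).

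Within PRC1 the transcripts of Ring1b and of 1 partner were lower. Of 22 PRC1 subunit genes measured, 1 rose and 2 fell, 13.6% against 12.2% of all genes, with a median log2 fold change of -0.03 against 0.01 over all genes. Rnf2 was the target. Bmi1, a Polycomb ring finger protein that pairs with Ring1b and stimulates its activity, read 11.09, 11.09 and 11.07 in Ring1b_KD against 11.92, 11.93 and 12.09 in Control and fell 1.86-fold (limma adjusted p = 3.03e-05). Pcgf3, another ring finger partner, read 9.37, 9.50 and 9.32 against 8.96, 8.86 and 9.05 and rose 1.36-fold (limma adjusted p = 0.0104). Ring1 read 8.53, 8.96 and 8.71 against 8.90, 9.04 and 8.98, with overlapping groups (log2 fold change -0.24, limma adjusted p = 0.15). With the values as deposited the list held 1 rise and 4 falls, and with each array centred on its median 0 and 6. The rises numbered 0 without Control array 2 and 2 without Ring1b_KD array 1.

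Called members made up 27.3% of PRC2 genes, against 12.2% of all genes. For the enzymes that remove ubiquitin from H2A and their cofactors the share was 18.2%. All 11 PRC2 genes and 10 of the 11 deubiquitinase and cofactor genes had a Control mean at or above the median gene. By Control level, 18.6% and 24.4% of genes were called in the third and highest quartiles. Of 11 PRC2 genes, Phf1, which binds methylated histone H3, rose (0.48, limma adjusted p = 0.00596), and the accessory subunits Aebp2 (-0.34, limma adjusted p = 0.0081) and Jarid2 (-0.43, limma adjusted p = 0.0426) fell. The catalytic subunit Ezh2 (0.17, limma adjusted p = 0.37) and the core subunit Suz12 (-0.20, limma adjusted p = 0.15) did not pass. Of 11 H2A deubiquitinase and cofactor genes, Asxl2, a partner of Bap1, rose (0.37, limma adjusted p = 0.0202) and Usp12 fell (-0.46, limma adjusted p = 0.00263). Both scalings other than quantile normalization gave 1 rise and 3 falls in the PRC2 list and 0 rises and 2 falls in the deubiquitinase list. The PRC2 falls numbered 1 without any 1 CBFb_KD array, Ring1b_KD array 1 or 3 or Control array 1 or 2. The deubiquitinase rises numbered 0 without Ring1b_KD array 2 or 3 or Control array 2 or 3 and 2 without CBFb_KD array 1 or 2.

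Of 33 Hox genes, which Polycomb is known to silence, 2 rose and 1 fell, or 9.09%, and of 48 other developmental regulators known as Polycomb targets 1 rose, or 2.08%, against 12.2% of all genes. Most members were dim, and dim genes were called seldom: 27 of the Hox genes and 43 of the developmental regulators lay in the lower 2 quartiles by Control level, where 2% and 3.91% of all genes were called. The shares of the lists are thus not to be read against 12.2% alone. The medians were 0.00 and -0.01. Hoxa5 (0.34, limma adjusted p = 0.0226), Hoxa11 (0.29, limma adjusted p = 0.0407) and the mesoderm factor Hand1 (0.30, limma adjusted p = 0.0181) rose, and Hoxd13 fell (-0.37, limma adjusted p = 0.0401). The other probe sets of Hoxa5 (-0.02), Hand1 (-0.10) and Hoxd13 (0.02) were not called. Hoxa5, Hand1 and Hoxd13 each lost the call when the probe sets of a gene were averaged. No member of either list differed by more than Hoxd13. With the deposited values 2 Hox genes rose and 0 fell, and with median centring 1 rose and 1 fell. Without Ring1b_KD array 1 or 3 or any 1 Control array 0 Hox genes rose, without CBFb_KD array 3 1 did, and the fall of Hoxd13 was lost without CBFb_KD array 3, Ring1b_KD array 1 or 2 or any 1 Control array. The developmental list had 0 rises without Control array 2.

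Among the Cdkn inhibitors 1 of 7 rose (14.3% against 12.2% of all genes called). Cdkn1b, which encodes p27 and restrains entry into S phase, read 10.90, 10.67 and 10.55 in Ring1b_KD against 10.09, 9.87 and 9.71 in Control, and rose 1.76-fold (limma adjusted p = 0.00176). The other Cdkn1b probe set gave 0.02 and was not called. Cdkn2a, the Polycomb target named above and looked up for that reason, had a log2 fold change of -0.06 (limma adjusted p = 0.67). Of 26 p53 target and apoptosis genes 1 rose and 4 fell (19.2% against 12.2% of all genes). The stress regulator Sesn1 rose (0.34, limma adjusted p = 0.0107), while Ei24, the caspase activator Apaf1 (-0.43, limma adjusted p = 0.0336) and the survival factor Bcl2 (-0.43, limma adjusted p = 0.0159) fell. The falls numbered 1 without Ring1b_KD array 1 or Control array 1 and 2 without Ring1b_KD array 3 or Control array 2 or 3, and with either other scaling 0 rose and 5 fell. The rises numbered 0 without Control array 3 and 2 without CBFb_KD array 1 or 2, Ring1b_KD array 3 or Control array 2.

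The core binding factor genes themselves passed in 1 case of 6 (16.7% against 12.2% of all genes). Cbfa2t3, an ETO family corepressor, rose (0.39, limma adjusted p = 0.0397), although another of its probe sets was called in the opposite direction, and with median centring 0 rose and 1 fell. The call of Cbfa2t3 was also lost with the deposited values, without Ring1b_KD array 1 or 2 and without Control array 1 or 2. Runx1 read 10.33, 10.84 and 10.78 against 10.38, 10.36 and 10.43 (0.26, limma adjusted p = 0.364), Runx3 had -0.11 (limma adjusted p = 0.542) and Cbfb -0.13 (limma adjusted p = 0.36). Other probe sets of both RUNX genes were called: 1 of the 6 of Runx1 rose (0.44, limma adjusted p = 0.0168 over all probe sets) and the other of Runx3 fell (-0.78, limma adjusted p = 0.00101 over all probe sets).

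Nucleolar ribosome assembly genes, whose products process ribosomal RNA and build it into subunits, had the highest share of called members among the 36 lists. Of 42 measured members 19 fell and 0 rose, or 45.2% against 12.2% of all genes and 24.4% of those in the highest quartile by Control level, and 38 had a negative log2 fold change. The median was -0.29 against 0.01 over all genes. Nop16, given above, fell most. Ddx21, an RNA helicase of the nucleolus, read 10.32, 10.38 and 10.60 in Ring1b_KD against 10.95, 10.98 and 10.99 in Control (-0.54, limma adjusted p = 0.00161). Nop14, a small subunit processing factor, read 8.81, 8.80 and 8.99 against 9.33, 9.59 and 9.53 (-0.62, limma adjusted p = 0.00208), and Ncl, the major nucleolar protein nucleolin, 13.50, 13.86 and 14.01 against 14.33, 14.36 and 14.31 (-0.54, limma adjusted p = 0.00353). In all 3 genes each Ring1b_KD array was below each Control array, with the highest Ring1b_KD value in array 3. The falls numbered 24 with the deposited values and 29 with median centring, 10 without Control array 2 or Control array 3 and 12 without Ring1b_KD array 1.

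The cytoplasmic ribosomal proteins, by contrast, had 1 called member of 31 (3.23% against 12.2% of all genes). By Control level, 24.4% of genes were called in the highest quartile. Rpl8, a protein of the large subunit, fell (-0.20, limma adjusted p = 0.0208), and the list's median was -0.02. Most of these transcripts lay near the top of the signal range, where differences can be compressed, which was not tested here. With median centring 6 fell. The count was 0 without Ring1b_KD array 1 or any 1 Control array.

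Aminoacyl-tRNA synthetases, which charge tRNAs for translation, fell in 6 of 19 members and rose in 0 (31.6% against 12.2% of all genes, median -0.26). All 19 had a Control mean at or above the median gene. In the third and highest quartiles by Control level 18.6% and 24.4% of genes were called. Eprs, the glutamyl-prolyl enzyme, read 10.89, 10.96 and 11.13 against 11.55, 11.54 and 11.54 (-0.55, limma adjusted p = 0.000903). Gars for glycine (-0.47, limma adjusted p = 0.00349), Tars for threonine (-0.51, limma adjusted p = 0.00869) and Rars for arginine (-0.38, limma adjusted p = 0.00958) fell too. The falls numbered 13 with the deposited values, 15 with median centring and 3 without Control array 3. Ears2 of the mitochondrion, among the largest rises, is not on this list of cytosolic enzymes.

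Protein folding genes of the CCT chaperonin and heat shock families fell in 7 of 22 members and rose in 0 (31.8% against 12.2% of all genes, median -0.20). Of the 22 genes 20 had a Control mean at or above the median gene. In the third and highest quartiles by Control level 18.6% and 24.4% of genes were called. Hsph1, a large heat shock protein that recharges Hsp70, read 10.50, 10.30 and 10.68 against 11.01, 11.14 and 11.50 (-0.73, limma adjusted p = 0.00248). The cochaperones Stip1 (-0.55, limma adjusted p = 0.00627) and Ahsa1 (-0.43, limma adjusted p = 0.00805) and the chaperonin subunit Cct2 (-0.29, limma adjusted p = 0.0138) fell as well. The falls numbered 12 with the deposited values, 13 with median centring, 4 without Control array 2 and 3 without Control array 3.

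**Figure D3:**
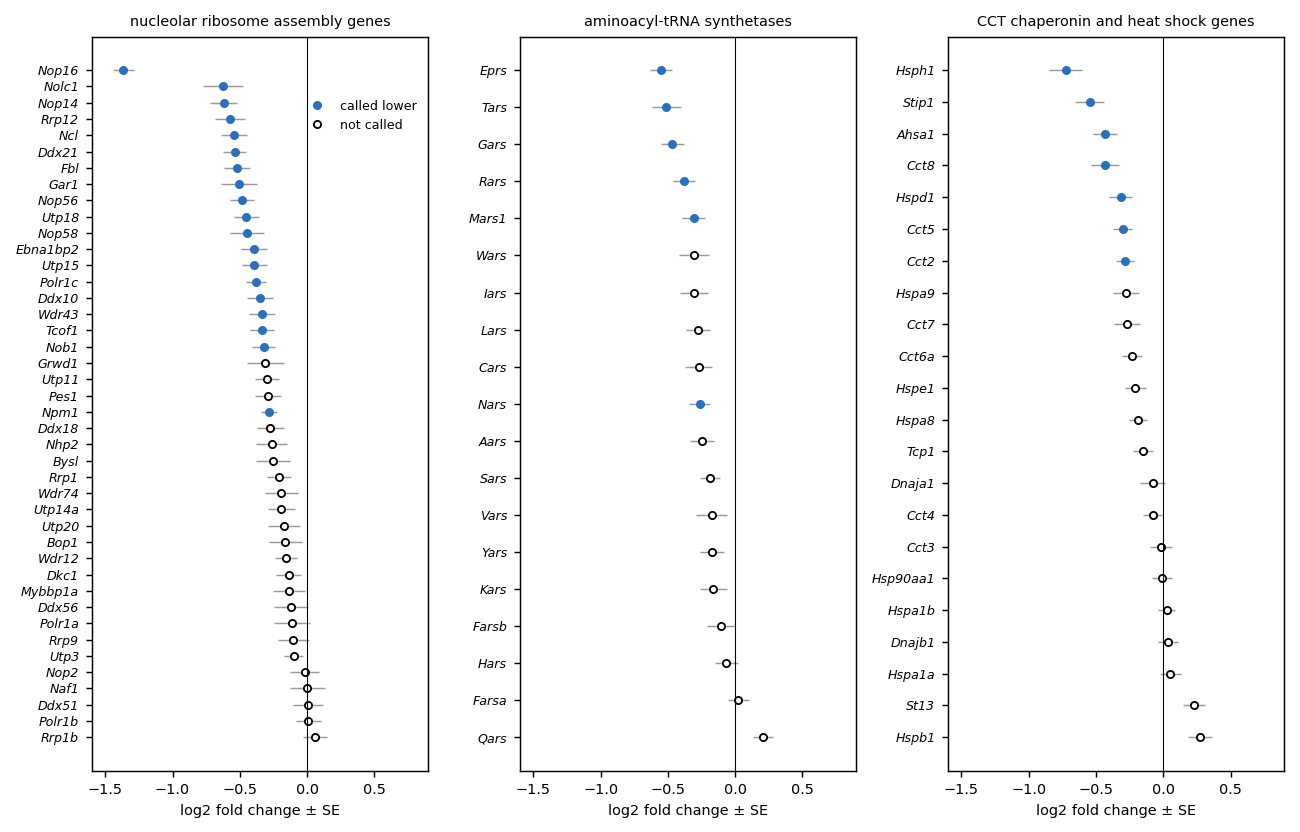
Each row is a gene of 3 lists, placed by its log2 fold change in Ring1b_KD over Control (x axis) with bars of 1 standard error. Filled circles passed the limma test and open circles did not. In the nucleolar list 38 of 42 genes lie below 0 and Nop16 stands apart at -1.37. The other lists also lie mostly below 0, with Qars and Hspb1 the highest of theirs.

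Endoplasmic reticulum stress and amino acid response genes were called in both directions. Of 30 members 4 rose and 6 fell (33.3% against 12.2% of all genes, median -0.18). A Control mean at or above the median gene was found for 27. In the third and highest quartiles by Control level 18.6% and 24.4% of genes were called. Among the falls, Hspa5, the main Hsp70 protein of the organelle, read 12.49, 12.67 and 12.46 against 12.94, 13.01 and 13.11 (-0.48, limma adjusted p = 0.00133), and Canx, the lectin chaperone calnexin (-0.40, limma adjusted p = 0.00431), and Creld2 (-0.50, limma adjusted p = 0.00695) fell with it. Another probe set of Hspa5 was called in the opposite direction. Ddit4, a stress-induced inhibitor of mTOR signalling, read 10.96, 11.28 and 11.32 against 10.47, 10.64 and 9.80 and rose (0.89, limma adjusted p = 0.00681). The split was 3 rises and 9 falls with the deposited values and 1 and 14 with median centring, and the rises numbered 2 without Ring1b_KD array 2 or Control array 3.

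Cell division genes fell in a minority of members, and their counts moved with the scaling. Of 40 DNA replication genes 8 fell and 2 rose (25%, median -0.16). E2f8, a repressor of the E2F family expressed in cycling cells, read 10.09, 10.08 and 10.04 against 11.03, 10.97 and 11.03 (-0.94, limma adjusted p = 3.98e-05). Ccne2, the S phase cyclin E2, read 8.27, 7.61 and 8.09 against 8.75, 8.95 and 9.03 (-0.92, limma adjusted p = 0.00205), and both genes had groups that did not overlap. Rfc1 of the clamp loader (-0.41, limma adjusted p = 0.00667) and Gins3 of the replicative helicase (-0.40, limma adjusted p = 0.0133) also fell. The list held 1 rise and 17 falls with the deposited values and 0 and 20 with median centring. The falls numbered 3 without Ring1b_KD array 2 or Control array 2, 4 without Control array 1 or 3 and 5 without Ring1b_KD array 1, and the rises 0 without Ring1b_KD array 3 or Control array 2 or 3 and 1 without Control array 1.

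Of 31 mitotic genes 3 fell and 0 rose (9.68% against 12.2% of all genes, median -0.17). All 31 had a Control mean at or above the median gene. In the third and highest quartiles by Control level 18.6% and 24.4% of genes were called, more than in this list. The genes that fell were the proliferation marker Mki67 (-0.45, limma adjusted p = 0.0114), the survivin gene Birc5 (-0.37, limma adjusted p = 0.0181) and the spindle checkpoint gene Mad2l1 (-0.27, limma adjusted p = 0.0451). With the deposited values 15 fell and with median centring 17, while without Control array 3 the count was 0 and without Ring1b_KD array 2 or Control array 2 it was 1. The direct contrast put Mad2l1 higher in Ring1b_KD than in CBFb_KD (0.53, limma adjusted p = 0.000621).

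Phorbol ester early response genes were called in both directions, 7 of 30 higher and 4 lower (36.7% against 12.2% of all genes, median 0.04). Of the 30 genes 20 had a Control mean at or above the median gene. In the third and highest quartiles by Control level 18.6% and 24.4% of genes were called. Besides Nr4a2 and Fosl2, Ier2, an immediate early gene, read 11.05, 10.79 and 10.80 against 10.19, 10.49 and 10.45 (0.51, limma adjusted p = 0.00689), and Zfp36, which destabilises cytokine mRNAs, 8.86, 8.78 and 8.54 against 8.0, 8.45 and 8.04 (0.56, limma adjusted p = 0.0159). Both rose. Myc, a driver of growth genes, read 11.42, 11.45 and 11.40 against 11.80, 11.81 and 12.05 and fell (-0.46, limma adjusted p = 0.00267). With the deposited values 7 rose and 6 fell, and with median centring 2 and 7. The rises numbered 4 without Ring1b_KD array 2 or Control array 1, 3 without Ring1b_KD array 1 and 2 without Control array 3. The falls numbered 2 without Ring1b_KD array 3 or Control array 2 and 1 without Control array 3.

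Megakaryocyte and platelet genes as a group stayed near the background, 2 of 36 higher and 3 lower (13.9%, median 0.04). Rab27b, a GTPase needed for platelet dense granules, read 11.47, 11.56 and 11.19 in Ring1b_KD against 10.36, 10.62 and 9.76 in Control and rose 2.23-fold (limma adjusted p = 0.00231). Ctla2a, a cathepsin inhibitor, rose (0.73, limma adjusted p = 0.015), although its probes may also capture the near-identical Ctla2b. Vwf, the platelet adhesion protein, was dim in all arrays, at 4.8, 4.90 and 4.61 against 5.78, 5.50 and 5.27 (-0.75, limma adjusted p = 0.0209), and Tgfb1 fell (-0.29, limma adjusted p = 0.0246). Pf4 (-0.14, limma adjusted p = 0.637) and Itga2b (0.17, limma adjusted p = 0.741) did not pass, and array 3 of each group was the lowest for both. The list's mean level was 7.66 to 8.04 in the Ring1b_KD arrays and 7.78 to 7.99 in the Control arrays. With median centring 1 rose and 4 fell, and the falls numbered 0 without Ring1b_KD array 3 or Control array 1 or 2 and 1 without Ring1b_KD array 1 or Control array 3. The rises numbered 1 without Ring1b_KD array 1 or 2 or Control array 3.

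Erythroid genes gave 1 rise and 2 falls of 26 (11.5% against 12.2% of all genes). The carbonic anhydrase gene Car1 read 12.83, 12.69 and 12.56 against 13.46, 13.33 and 13.20 (-0.64, limma adjusted p = 0.000493) and the red cell surface gene Ermap fell as well (-0.59, limma adjusted p = 0.00538). Blvrb, a biliverdin reductase, rose (0.36, limma adjusted p = 0.0254). The erythroid rises numbered 0 with both other scalings, beside 3 falls, and 0 without Ring1b_KD array 1 or any 1 Control array, and 2 without CBFb_KD array 1 or Ring1b_KD array 3. Blvrb also counts among 13 heme synthesis and breakdown enzymes, of which 3 rose and 0 fell (23.1% against 12.2% of all genes), with Uros (0.33, limma adjusted p = 0.0312) and Hmox1 (0.27, limma adjusted p = 0.0473). That direction flipped with the scaling, to 0 rises and 1 fall with the deposited values and 0 and 2 with median centring, and the heme rises numbered 0 without Ring1b_KD array 1 or Control array 2 or 3 and 1 without Control array 1.

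Hematopoietic transcription factors were called in both directions, 3 of 29 higher and 4 lower (24.1%, median -0.02). Lyl1, a basic helix-loop-helix factor of progenitors, read 10.34, 10.12 and 9.93 against 9.54, 9.21 and 9.21 and rose 1.75-fold (limma adjusted p = 0.00189). Gata2, a progenitor factor that also serves mast cells, read 11.49, 11.74 and 11.41 against 12.29, 12.05 and 12.09 and fell 1.52-fold (limma adjusted p = 0.00153). Etv6 (-0.45, limma adjusted p = 0.00915) and Lmo2 (-0.46, limma adjusted p = 0.0217) fell with it. The direct contrast put Gata2 lower in Ring1b_KD than in CBFb_KD (-0.83, limma adjusted p = 6.2e-05). With median centring 1 rose and 6 fell, and the rises numbered 1 without Ring1b_KD array 1 or 2 or Control array 2 or 3 and the falls 2 without Ring1b_KD array 1 or Control array 1 or 3.

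Markers of other blood cells moved singly rather than as lists. Of 17 mast cell, basophil and eosinophil genes 3 rose and 1 fell (23.5%, median 0.03). Hdc, which makes histamine, read 8.34, 8.31 and 8.67 against 7.53, 7.44 and 7.40 (0.99, limma adjusted p = 0.0217) and Srgn, the core protein of granule proteoglycan, 14.12, 14.13 and 13.93 against 13.81, 13.81 and 13.66 (0.30, limma adjusted p = 0.0137). Both rose beside Fcer1a, while Ms4a2 fell. The list's mean level was 7.68 to 7.91 in Ring1b_KD and 7.57 to 7.81 in Control, overlapping ranges, and the rises numbered 1 without Ring1b_KD array 1 or Control array 3. In bulk RNA more cells of a type and more RNA per cell cannot be told apart.

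Of 28 granulocyte and monocyte genes 1 rose and 1 fell (7.14% against 12.2% of all genes). Csf2rb, the shared receptor chain for interleukin-3 and GM-CSF, read 9.23, 9.28 and 8.79 against 8.44, 8.41 and 7.0 and rose 2.22-fold (limma adjusted p = 0.0334), with its near-identical paralog Csf2rb2 a possible source of part of the signal. Ctsg, the granule protease cathepsin G, fell (-0.80, limma adjusted p = 0.0231). With the deposited values 4 rose and 1 fell. The rises numbered 0 without Ring1b_KD array 1 or Control array 3 and 2 without CBFb_KD array 1, and the falls 0 without Control array 1 or 2.

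Of 24 lymphoid genes 2 rose and 1 fell (12.5% against 12.2% of all genes), with a list median of 0.06 beside the rises of Tnfrsf9 and Gzmb. Nkg7, a cytotoxic granule gene, read 10.52, 10.51 and 10.08 against 11.70, 11.45 and 10.95 and fell 2.00-fold (limma adjusted p = 0.00196), opposite to Gzmb. The T cell kinase Zap70 (0.50, limma adjusted p = 0.0193) and Cd8a (0.31, limma adjusted p = 0.0347) rose, and those rises numbered 0 without Ring1b_KD array 2 or 3 or Control array 2 or 3 and 1 without array 1 of either group. The list's mean level was 6.36 to 6.38 in Ring1b_KD and 6.34 to 6.39 in Control, and the defining markers Cd3e (0.12, limma adjusted p = 0.4) and Cd79a (-0.02, limma adjusted p = 0.918) did not pass. Of 20 stem, progenitor and endothelial genes the adhesion gene Cd48 fell (-0.96, limma adjusted p = 0.000278) and no other was called; 2 fell without array 1 of either knockdown or without Control array 3, and 3 with median centring. Of 20 fibroblast and epithelial genes 0 were called by limma, 2 had an unadjusted p under 0.05, and 1 rose with the deposited values.

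Interferon response genes were called in both directions, 3 of 39 higher and 5 lower (20.5%, median -0.06). Isg20, an antiviral exonuclease, read 10.53, 10.80 and 10.29 against 11.47, 11.40 and 11.21 (-0.82, limma adjusted p = 0.000728). Eif2ak2, the RNA-sensing kinase PKR, read 7.87, 7.90 and 7.93 against 8.54, 8.64 and 8.36 (-0.61, limma adjusted p = 0.000848), and the immunoproteasome subunit Psmb8 fell too (-0.44, limma adjusted p = 0.00923). The transcription factor Irf1 rose (0.39, limma adjusted p = 0.00791). The direct contrast put Isg20 (-1.20, limma adjusted p = 1.81e-05) and Eif2ak2 (-0.94, limma adjusted p = 1.45e-05) lower in Ring1b_KD than in CBFb_KD. With median centring 1 rose and 8 fell, and the rises numbered 1 without Control array 2 or 3. The falls numbered 3 without CBFb_KD array 3, Ring1b_KD array 2 or 3 or Control array 1 or 2.

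Among metabolic lists, oxidative phosphorylation genes held 6 rises and 0 falls of 37 (16.2% against 12.2% of all genes, median 0.05). Of the 37 genes 36 had a Control mean at or above the median gene. In the third and highest quartiles by Control level 18.6% and 24.4% of genes were called, more than in this list. Ndufa10 of complex I read 12.46, 12.07 and 12.34 against 11.75, 11.67 and 11.60 (0.62, limma adjusted p = 0.00168), Uqcrc2 of complex III had 0.43 (limma adjusted p = 0.00214) and Atp5d of the ATP synthase 0.55 (limma adjusted p = 0.00231). The other Ndufa10 probe set gave 0.05 and was not called. The excess of rises was lost with the other scalings, 4 rises and 4 falls with the deposited values and 3 and 7 with median centring. The rises numbered 3 without Ring1b_KD array 1 or any 1 Control array.

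Of 24 glycolysis and pentose phosphate genes 1 rose and 3 fell (16.7%). Pfkp, the platelet form of phosphofructokinase, read 8.12, 8.54 and 7.96 against 9.32, 9.34 and 9.34 and fell 2.18-fold (limma adjusted p = 0.000113). The transketolase gene Tkt (-0.37, limma adjusted p = 0.00647) and Pfkl (-0.45, limma adjusted p = 0.0215) fell, although a second Pfkl probe set was called the other way, and Aldoa rose (0.42, limma adjusted p = 0.0222). Both other scalings left 0 rises, as did leaving out Ring1b_KD array 1 or 2 or any 1 Control array. Of 28 cholesterol and fatty acid synthesis genes the mevalonate pathway gene Pmvk alone was called (-0.28, limma adjusted p = 0.044), with 4 and 7 falls under the other scalings. Without Ring1b_KD array 3, 11 fell, and without any other single array at most 1 did; the list's mean level was 9.87 to 10.54 in the Ring1b_KD arrays, highest in array 3, and 10.18 to 10.33 in the Control arrays.

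Lysosomal genes gave 7 rises and 3 falls of 32 (31.2% against 12.2% of all genes, median 0.08). This split turned to 2 and 5 with the deposited values and 0 and 7 with median centring. Of the 32 genes 29 had a Control mean at or above the median gene. In the third and highest quartiles by Control level 18.6% and 24.4% of genes were called. The proton pump subunits Atp6v0a1 (0.39, limma adjusted p = 0.00607) and Atp6v0d1 (0.52, limma adjusted p = 0.00622) rose. The membrane protein Lamp1 read 12.98, 13.06 and 12.98 against 13.45, 13.42 and 13.42 (-0.42, limma adjusted p = 0.000466) and the protease Ctsl 11.71, 12.02 and 11.60 against 12.59, 12.68 and 12.37 (-0.77, limma adjusted p = 0.0028). Both fell, and the rises numbered 2 without Control array 2, 3 without Ring1b_KD array 2 or Control array 3 and 4 without Ring1b_KD array 1 or CBFb_KD array 3.

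Proteasome subunit genes held 2 rises and 5 falls of 31 (22.6%). Psma1 read 11.92, 11.78 and 12.01 against 11.32, 11.31 and 11.42 and rose (0.55, limma adjusted p = 0.000628), as did Psmb2 (0.43, limma adjusted p = 0.00763), while Psma5 (-0.34, limma adjusted p = 0.0118) and Psmb5 (-0.31, limma adjusted p = 0.0243) fell, so subunits of the same catalytic core went both ways. With median centring 1 rose and 10 fell, and the falls numbered 0 without Control array 3, 1 without Ring1b_KD array 1 or Control array 2 and 2 without Control array 1.

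Of 32 hnRNP and splicing factor genes 2 rose and 5 fell (21.9%, median -0.10). Hnrnpd, which encodes the RNA-binding protein AUF1, read 10.87, 11.15 and 11.25 against 11.83, 11.78 and 12.05 and fell 1.74-fold (limma adjusted p = 0.000769). The splicing regulators Srsf3 (-0.46, limma adjusted p = 0.00267) and Srsf4 (-0.30, limma adjusted p = 0.0324) fell, and Sf3b1 rose (0.26, limma adjusted p = 0.0202), although another of its probe sets was called the other way. Both other scalings left 0 rises, with 7 and 13 falls, and leaving out any 1 Ring1b_KD or Control array left at most 1 rise. The falls numbered 2 without Ring1b_KD array 1 or Control array 2 or 3 and 3 without Ring1b_KD array 2 or Control array 1.

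Chromatin genes outside Polycomb were called in both directions. Of 31 histone lysine methyltransferase and demethylase genes 7 rose and 2 fell (29.0%, median -0.04), a direction that flipped to 3 and 6 with the deposited values and 1 and 9 with median centring. Kdm5a, an H3K4 demethylase, read 9.11, 9.37 and 9.16 against 8.43, 8.70 and 8.23 (0.76, limma adjusted p = 0.00363), and the H3K9 demethylase Kdm3a (0.45, limma adjusted p = 0.00433) and the methyltransferase Nsd3 (0.41, limma adjusted p = 0.0143) rose too. Kdm5a had 6 probe sets and the chosen one alone was called. The others gave -0.13 to 0.05, and the call of Kdm5a was lost when its probe sets were averaged. Suv39h2, an H3K9 methyltransferase, read 7.6, 7.20 and 7.69 against 8.19, 8.15 and 8.25 and fell (-0.70, limma adjusted p = 0.00237). The rises numbered 2 without Ring1b_KD array 2 or Control array 1, 3 without Control array 3 and 4 without Ring1b_KD array 3 or Control array 2, and the falls 1 without Control array 3.

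Of 13 DNA methyltransferase, UHRF and TET genes 0 rose and 3 fell (23.1%). They were Mbd3 of the NuRD complex (-0.42, limma adjusted p = 0.0087), the methyltransferase Dnmt3a (-0.38, limma adjusted p = 0.0267) and Uhrf1, which brings the maintenance methyltransferase to replicated DNA (-0.49, limma adjusted p = 0.0332). The falls numbered 1 without Ring1b_KD array 1 or any 1 Control array.

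Circadian clock genes fell in 4 of 19 members and rose in 0 (21.1%, median -0.06). Nr1d2, the repressor REV-ERB beta, read 8.03, 7.99 and 8.19 against 8.68, 9.05 and 9.03 (-0.85, limma adjusted p = 0.000493). Per2, a core repressor of the clock, read 7.10, 7.40 and 7.29 against 7.77, 7.95 and 8.06 (-0.67, limma adjusted p = 0.00157), and the repressor Bhlhe40 8.68, 8.35 and 8.53 against 9.07, 9.60 and 9.09 (-0.74, limma adjusted p = 0.00621). Per3 fell as well (-0.31, limma adjusted p = 0.0339), and no gene of these 4 had overlapping groups. Leaving out any 1 Ring1b_KD or Control array left 3 falls, without that of Per3. Per2 and Per3 lost their calls when the probe sets of a gene were averaged, and no other probe set of either was called. With the deposited values 1 clock gene rose and 4 fell, and with median centring 0 and 5. Of 43 adhesion, actomyosin and matrix genes 3 rose and 0 fell (6.98% against 12.2% of all genes). They were Ilk (0.37, limma adjusted p = 0.0159), Itgav (0.45, limma adjusted p = 0.0394) and Myl12a (0.25, limma adjusted p = 0.0483). The split turned to 0 rises with 1 and 2 falls under the other scalings. The rises numbered 6 without Ring1b_KD array 3, 1 without CBFb_KD array 3 or Control array 2 and 0 without Ring1b_KD array 1 or 2 or Control array 3.

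**Figure D4:**
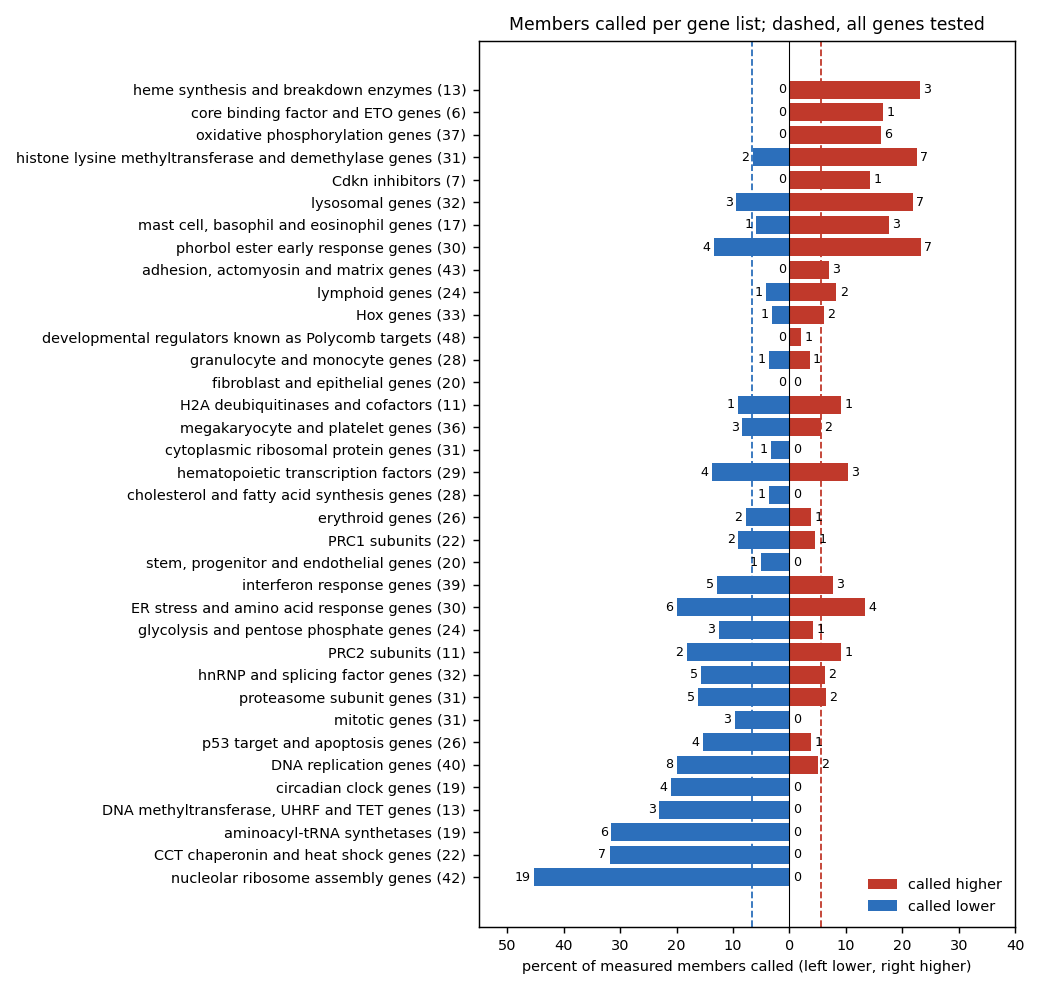
Each row is a gene list with the number of measured members in brackets, and bars give the percent of members called lower (left, blue) and higher (right, red) in Ring1b_KD, with counts at their ends. Dashed lines mark the percent over all genes tested, 6.57 lower and 5.66 higher. Nucleolar ribosome assembly genes have the longest bar, with 19 of 42 lower.

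The direction of the small differences depended on how the arrays were scaled. As deposited, the array medians ran from 6.514 to 6.652, with the 3 Ring1b_KD arrays highest. Quantile normalization, which removes such shifts, gave 1029 higher and 1196 lower (46.2% higher). The deposited values gave 882 and 1709 (34.0% higher) and median centring 352 and 2541 (12.2% higher). In the highest quartile by Control level the median log2 fold change was -0.02 after quantile normalization, -0.12 as deposited and -0.20 after median centring. In the lowest quartile it was 0.00, 0.05 and -0.03. Calls moved at every level: in the lowest quartile 52 rose and 39 fell after quantile normalization and 152 and 20 with the deposited values, and in the third 422 and 423 became 119 and 823 with median centring. No gene called under both quantile normalization and another scaling changed its direction, and 1743 of the 2225 calls were shared with the deposited values and 1534 with median centring.

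**Figure D5:**
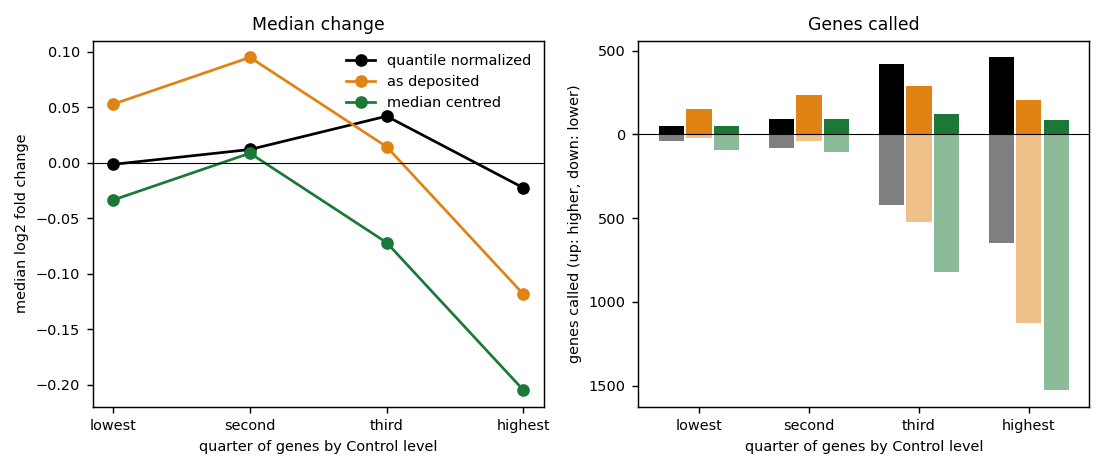
Genes were divided into quartiles by their Control level (x axis). The left panel gives the median log2 fold change in Ring1b_KD over Control and the right panel the number of genes called higher (above 0, full colour) and lower (below 0, pale), each after quantile normalization (black), as deposited (orange) and with each array centred on its median (green). In the highest quartile the genes called lower number 651, 1123 and 1525 in that order.

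Different probe sets of a gene gave a further view of the calls. Of 1029 genes called higher 657 had another probe set, and in 204 of these another was called in the same direction and in 16 in the opposite one. Of 1196 genes called lower 729 had another, with 298 the same and 12 opposite. Among the genes named here a called probe set went the other way in Asxl2, Cbfa2t3, Hspa5, Pfkl and Sf3b1.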

How the data were processed

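Biotin-labelled RNA of L8057 cells had been hybridised to 9 one-colour short-oligonucleotide arrays, 3 per group, after amplification from the poly(A) tail by in vitro transcription, per the labels' protocols. The authors' deposited values were taken as log2 signals from their range (3.23 to 15.36), and the software and normalization behind them were not given in the sources used here. Array medians differed by 0.137, over the limit of 0.1, so all 45101 probe sets were quantile normalized with limma 3.58.1 in R 4.3.3, and the 64 control probe sets were then left out. The platform annotation gave 34945 probe sets a single symbol and 932 several, and 9160 were not listed; 34741 matched RefSeq's mouse genes by Entrez identifier. Linear models with lmFit and eBayes (trend = TRUE) were fitted to all 9 arrays, two-sided, with Benjamini-Hochberg adjustment over 18193 genes and calls at an adjusted p under 0.05. Fold changes are of log2 signals, which understate changes of dim genes, and precision is limited by the number of arrays. The fit was tested on simulated data.

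The named genes were Rnf2, Ring1, Bmi1, Cbfb, Runx1 and Runx3, the 15 called genes per direction with the largest change whose groups did not overlap and whose higher mean was at or above the median gene, and up to 4 called members of each list by smallest adjusted p. Unnamed gene models were skipped. Fcer1g, Cdkn2a, Ezh2, Suz12 and cell type markers were looked up in addition. The 36 lists held 1021 symbols, of which 941 were measured. The lists and named genes were chosen with earlier results of these data known. Lists were described by counts and medians beside all genes, without a test. Promoters were RefSeq's, by symbol, the first entry per gene. Alternatives covered scaling, the arrays fitted, a replicate block, the variance model, a filter on level, and the choice or mean of probe sets.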

Additional observations from a re-analysis of the deposited data

Results flagged for a closer look

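Probe sets without a single gene symbol were outside the comparison of genes. Fitted with all 45037 probe sets, 471 of these 10092 (4.67%) were called by limma between Ring1b_KD and Control, 298 higher and 173 lower, against 3820 of all probe sets (8.48%). They are unnamed here and were not analysed further.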

How the results depend on the processing

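The count of 2225 called genes, with 1029 higher and 1196 lower, stayed within 1.5 times under the deposited values (2591), with the 6 arrays of Ring1b_KD and Control alone (2113), without the trend (2246), with robust variance (2246), with genes at or above the median level (2484) and with the mean of probe sets (1780). Median centring gave 352 higher and 2541 lower. Fits without moderation called 964 (410 higher, 554 lower), and probe sets tested singly gave 3820 (1698 higher, 2122 lower). Asking for a change of at least 2-fold left 66, 33 per direction. Leaving out 1 array gave 1139 to 2365 in all, 469 to 1110 higher and 670 to 1255 lower, lowest without Control array 3. No gene called under both the reported fit and one of these fits on genes changed direction.

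Deviations from the group mean correlated at -0.07, 0.04 and 0.15 between same-numbered Ring1b_KD and Control arrays. Pairs with different numbers gave -0.16 to 0.14, and CBFb_KD arrays were not compared. Whether arrays of the same number were handled together cannot be told from these values. The fit with the replicate block called 2611, of which 2175 were among the 2225.

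Of the 132 named genes that were called, 47 kept the call under every alternative and 85 lost it under at least 1, Rars only when an array was left out. Rnf2 kept its call in all. Ring1 passed with median centring or without Ring1b_KD array 2, Cbfb with median centring and Runx3 with the mean of probe sets.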

Other observations

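After the counts of the nucleolar, aminoacyl-tRNA synthetase and chaperonin lists had been seen, their promoters were searched for the E-box CACGTG, which Myc is known to bind and which reads the same on both strands. It stood in 9.02% of the 14452 tested genes with a promoter, in 11.9% of those in the highest quartile by Control level, in 7 of 35 nucleolar genes, 4 of 12 synthetases and 2 of 17 chaperonin and heat shock genes. Members called lower held it in 2 of 15, 1 of 4 and 2 of 7 cases and members not called in 5 of 20, 3 of 8 and 0 of 10. No test was made of these shares.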
